A study of Drosophila melanogaster with 9 samples.

Results

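The genes described here are 10 factors that act when a *Drosophila* neuroblast, the neural stem cell (NSC) of the fly, divides into a self-renewing and a differentiating cell. They are *dpn*, *klu*, *wor*, *ase*, *mira*, *insc*, *brat*, *numb*, *pros* and *nerfin-1*, chosen by name, and each symbol was found once in every one of the 3 deposited comparison tables, out of 13215 features listed in any of them. Poly(A) RNA was sequenced from 3 stages of a brain tumor, with 3 libraries per stage. All 3 stages carry the same transgenes, the *act-F/O* set (*hs-FLP*, *act>STOP>Gal4* and *UAS-nlsGFP*) together with *UAS-NΔecd*. A heat shock starts *actin*-driven Gal4 in random cells, and these clones then express nuclear GFP and NΔecd, a constitutively active form of the receptor Notch. The primary tumor (N-FACS) is live GFP-positive cells sorted from 150 brains of 3rd instar larvae per replicate, 4 days after clone induction. By the methods of the study most sorted cells were NSCs of the tumor, with a few mature neurons and glia. Its results describe neurons and glia as partly retained in the primary tumor. The first allograft (N-T0) is the tumor mass from 25 adult *w1118* hosts per replicate, 8 to 10 days after transplantation, and the fourth serial allograft (N-T3) is the mass from 25 such hosts, 6 to 8 days after transplantation. The GFP-bearing allograft masses were not sorted, so that they can hold host cells. By the methods of the study, T0 was raised from whole larval brain lobes, which also hold cells outside the clones. Part of the T0 masses was used to raise the later allografts, each from dissociated cells of the allograft before. T3 therefore differs from T0 in the type of graft as well as in passage. No group without NΔecd was part of the comparisons.

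A neuroblast divides asymmetrically. A complex at its apical side, tied to the spindle by the adaptor Inscuteable (*insc*), drives fate determinants to the basal side, where the scaffold Miranda (*mira*) carries Prospero (*pros*) and Brain tumor (*brat*) and the Notch inhibitor Numb (*numb*) gathers beside them. The basal cell, the ganglion mother cell (GMC), inherits these proteins, leaves the stem cell program and divides into neurons or glia, while the apical cell keeps the transcription factors Deadpan (*dpn*), Klumpfuss (*klu*), Worniu (*wor*) and, in the type I lineages, Asense (*ase*). Persistent Notch activity in the progeny keeps this program on.

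Each table lists for every gene its base mean (counts divided by size factors and averaged over the 6 libraries compared), and the log2 fold change, whose standard error is given here as SE. From these the mean of each stage was solved, and it is called here the implied mean, in normalized counts. The tables hold no value per library, so neither the depth of a library nor the scatter of single libraries can be given, and the SE of each fold change with its 95% limits is the measure of error, with n = 3 per stage. The labels number the replicates as separate RNA samples pooled from many animals, and p-values measure the spread between these pools. A gene was called higher or lower if the deposited adjusted p did not exceed 0.05 and the log2 fold change reached 0.5 in either direction. Transcripts of *N*, which the transgene also produces, were abundant throughout, at an implied 39870 (FACS), 22792 (T0) and 23711 (T3) normalized counts. *N* was called lower in both allografts, with log2 fold changes of -0.81 (SE 0.18, adjusted p = 4.3e-05) in T0 and -0.78 (SE 0.13, adjusted p = 7.5e-09) in T3.

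All 10 factors were well measured, and the lowest base mean of any of them in any comparison, that of *nerfin-1* in T3 against T0, lay at percentile 50.2 of all features. The implied mean of a stage can be had from a pair of tables that each scale their own libraries, and for these genes the values differed by at most 9.55%. In the Ensembl annotation of BDGP6.54, a later release than the one used to count the reads, *klu* (chromosome 3L, 10981171 to 11009188), *wor* (2L, 15423297 to 15425580), *ase* (X, 460747 to 463176), *mira* (3R, 19931799 to 19935120), *numb* (2L, 9437469 to 9464184) and *nerfin-1* (3L, 909112 to 912319) share no exonic base with another gene. *dpn* (2R, 8228971 to 8232330, minus strand) shares 1207 of its 2036 exonic bases with the antisense gene *asRNA:CR44275*. Whether the counting used strand is not given in the sources used here, and without it reads of *dpn* and of this antisense gene cannot be told apart. *insc* (2R, 20821262 to 20836028) shares 359 of 3887 exonic bases with *sktl* on the same strand, and *brat* (2L, 19133816 to 19179758) and *pros* (3R, 11328480 to 11407627) share 151 of 12788 and 72 of 24892 exonic bases with other genes.

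The first question was whether transcript levels of the stem cell program and its antagonists differed between the sorted primary tumor and the allograft masses. FACS and allografts differ together in host, sorting, possible cells outside the clones and time, and these parts cannot be told apart. Of the 10 factors, *ase*, *pros* and *nerfin-1* fell furthest, *brat* and *numb* fell less, and *dpn*, *klu*, *mira* and *insc* were not called in any comparison. In T0 against FACS 6 of 10 were called lower (*wor*, *ase*, *brat*, *numb*, *pros* and *nerfin-1*), where 16.2% of all 12167 tested features were called lower. In T3 against FACS 5 of 10 were called lower, the same genes without *wor*, where the background of lower calls was 18.2% of 12501 features. In T3 against T0 1 of 10, *nerfin-1*, was called lower, against a background of 1.02% of 9792 features. In the same tables no factor was called higher by the Wald test of DESeq2 in the deposited tables, where the background of higher calls was 15.3% for T0 and 17.2% for T3, each against FACS, with 0.429% for T3 against T0. At an unadjusted p under 0.05, 1 factor lay above FACS in T0 and 3 did in T3, and 1 lay above T0 in T3. A second Wald test, of a change above 0.5 in size, passed 0 factors as higher, where its background was 6.20% for T0 and 8.58% for T3, each against FACS, with 0.0306% for T3 against T0. All these backgrounds include weakly expressed features. In T0 against FACS, 8092 of 12668 features reached a base mean of 30, as all 10 factors did. The share called among features as abundant as the factors was not computed. The median log2 fold change of the 10 was -0.74 in T0 and -0.48 in T3 against FACS, beside -0.003 and -0.006 over all features whose base mean reached 30. Both comparisons use the same FACS libraries, so their values stand side by side and are not independent of each other. Since these are bulk samples, fewer cells that express a gene and less RNA per cell cannot be told apart.

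**Figure D1:**
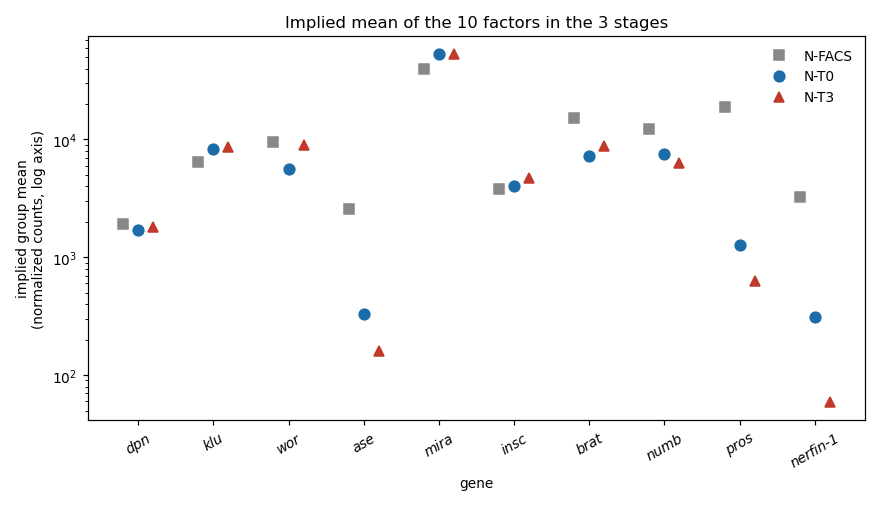
Implied mean of the 10 factors (horizontal axis) in N-FACS (squares), N-T0 (circles) and N-T3 (triangles), in normalized counts on a log axis, solved from the base mean and fold change of 3 libraries per stage and shown without error, which belongs to the fold changes. *mira* is the highest in all 3 stages, from 39345 to 53531, while *ase*, *pros* and *nerfin-1* drop from between 2558 and 18713 in FACS to between 58.8 and 1262 in the allografts.

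Of the transcription factors that mark the neuroblast itself, *dpn* and *klu* were not called, *wor* was called lower in T0 and *ase* was called lower in both allografts. *dpn*, the Hes-type bHLH repressor that Notch activates directly, averaged an implied 1927 (FACS), 1690 (T0) and 1794 (T3) normalized counts. These 3 values lie close together. Its log2 fold change against FACS was -0.19 (SE 0.27, adjusted p = 0.65) in T0 and -0.14 (SE 0.12, adjusted p = 0.38) in T3. The 95% limits of the T3 value, -0.38 to 0.10, put *dpn* at between 76.9% and 107% of its FACS level, whereas the limits in T0 were wider, from 60.5% to 127%.

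*klu*, a zinc finger factor of the WT1 type that sustains neuroblast self-renewal, averaged an implied 6483 (FACS), 8281 (T0) and 8576 (T3) normalized counts. Both allograft means lay above FACS, and by about the same amount. In T0 the log2 fold change was 0.35 (SE 0.21, adjusted p = 0.19). In T3 it was 0.37 (SE 0.13), and there its adjusted p of 0.011 passed while the size of the change did not reach 0.5, so that *klu* was not called.

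*wor*, a Snail-family zinc finger factor, was called at 1 of the allograft stages. Its implied mean was 9606 (FACS), 5661 (T0) and 8957 (T3) normalized counts, so the T0 mean was the low one. It was called lower in T0, at 58.9% of FACS (95% limits 42.9 to 80.9; log2 fold change -0.76, SE 0.23, adjusted p = 0.0050). In T3 it stood at 91.0% (limits 71.4 to 116; adjusted p = 0.59) and was not called. The difference between the allografts, 0.62 on the log2 scale (SE 0.26), had an unadjusted p of 0.016 and an adjusted p of 0.36, and a difference of *wor* between T0 and T3 was therefore not shown. Its fall in T0 did not pass the stricter Wald test of a change above 0.5 in size (adjusted p = 0.82).

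*ase*, the bHLH factor of the achaete-scute complex found in type I neuroblasts and their GMCs but absent from type II neuroblasts, fell at both stages. Its implied mean was 2558 (FACS), 332 (T0) and 159 (T3) normalized counts. The log2 fold change was -2.95 (SE 0.23, 95% limits -3.40 to -2.49, adjusted p = 2.3e-34) in T0, which left 13.0% of the FACS level. In T3 it was -4.04 (SE 0.23, limits -4.49 to -3.60, adjusted p = 4.4e-68), which left 6.07%. By p, *ase* ranked 61 of 12659 features in T0 and 47 of 12749 in T3, the highest place of any of the 10 factors in either comparison with FACS. It also fell in the Wald test of a change above 0.5, with an adjusted p of 1.1e-23 in T0 and 3.8e-52 in T3.

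**Figure D2:**
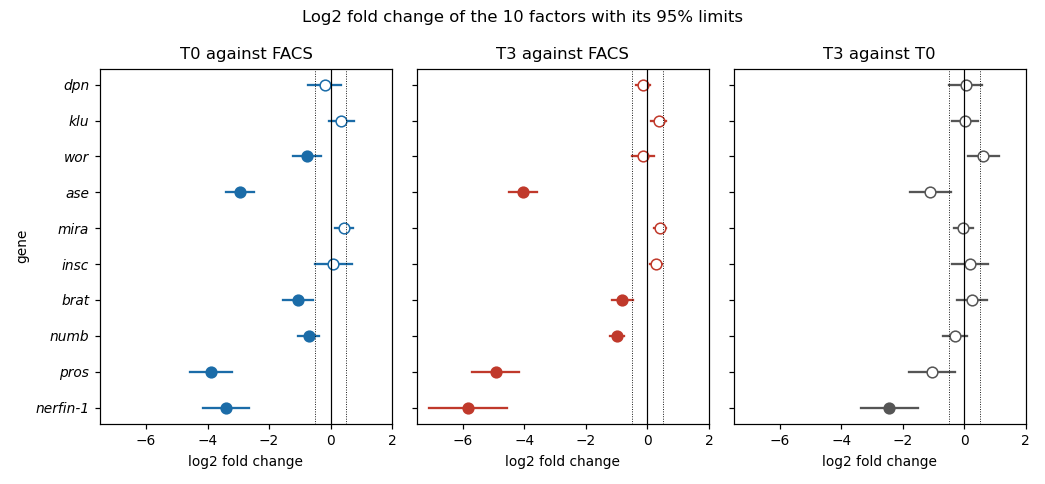
Log2 fold change of the 10 factors in T0 against FACS, T3 against FACS and T3 against T0, with 3 libraries per stage. Points are the deposited estimates, filled where called, horizontal bars the 95% limits, and dotted lines mark 0.5 on either side of 0. *dpn*, *klu*, *mira* and *insc* are open points in all panels, with the limits of *klu*, *mira* and *insc* above 0 in T3 against FACS, and *nerfin-1* is the filled point in T3 against T0.

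Neither of the 2 factors of the division machinery, *mira* and *insc*, was called in any comparison. *mira*, which encodes the scaffold for the basal determinants, was the most abundant of the 10, at an implied 39345 (FACS), 53038 (T0) and 53531 (T3) normalized counts. The allograft means were nearly equal and both above FACS. Its log2 fold change was 0.43 (SE 0.15, 95% limits 0.13 to 0.73, adjusted p = 0.019) in T0 and 0.41 (SE 0.10, limits 0.21 to 0.61, adjusted p = 2.8e-04) in T3. Both passed the adjusted p and stayed under the size limit of 0.5, so that *mira* was not called, with a level in T3 of 133% of FACS (limits 115.4 to 153).

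*insc*, the apical adaptor, averaged an implied 3765 (FACS), 4005 (T0) and 4731 (T3) normalized counts. Its log2 fold change was 0.09 (SE 0.31, adjusted p = 0.86) in T0. In T3 it was 0.29 (SE 0.10, limits 0.10 to 0.49, adjusted p = 0.0092), again under the size limit. The SE of *insc* was about the same in the comparisons that hold T0, 0.31 against FACS and 0.30 against T3, and lower in T3 against FACS. This held more widely, since for 8 of the 10 factors the SE was smallest in T3 against FACS, all but *pros* and *nerfin-1*. The median SE of the 10 was 0.24 in T0 against FACS, 0.15 in T3 against FACS and 0.26 in T3 against T0. Over all features whose base mean reached 30 it was 0.246, 0.160 and 0.234, so the pattern was not particular to these factors.

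Of the determinants that the GMC inherits, *brat*, *numb* and *pros* were all called lower at both stages. *brat*, whose product represses the translation of stem cell mRNAs in the basal cell, averaged an implied 15102 (FACS), 7277 (T0) and 8802 (T3) normalized counts. It was called lower at both stages, at 48.2% of FACS in T0 (95% limits 34.5 to 67.2; log2 fold change -1.05, SE 0.25, adjusted p = 1.3e-04) and at 56.9% in T3 (limits 44.6 to 72.5; -0.81, SE 0.18, adjusted p = 2.4e-05). Neither change passed the Wald test of a change above 0.5 (adjusted p = 0.13 and 0.30).

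*numb*, the endocytic adaptor that lowers Notch activity in the cell that inherits it, averaged an implied 12233 (FACS), 7482 (T0) and 6287 (T3) normalized counts. It was called lower at 61.2% of FACS in T0 (95% limits 48.5 to 77.1; log2 fold change -0.71, SE 0.17, adjusted p = 2.2e-04) and at 50.2% in T3 (limits 42.9 to 58.7; -0.995, SE 0.12, adjusted p = 1.1e-16). In T3 it also passed the Wald test of a change above 0.5 (adjusted p = 1.5e-04), which it did not in T0 (adjusted p = 0.73). For *numb* in T3 the table of T3 against T0 gave a lower implied mean, 5767 normalized counts.

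*pros*, the homeodomain factor that shuts off the stem cell program in the GMC and marks young neurons, was among the strongest losses. Its implied mean was 18713 (FACS), 1262 (T0) and 626 (T3) normalized counts. The log2 fold change was -3.89 (SE 0.35, 95% limits -4.58 to -3.20, adjusted p = 2.5e-26) in T0, or 6.74% of the FACS level, and -4.94 (SE 0.39, limits -5.70 to -4.18, adjusted p = 2.0e-35) in T3, or 3.27%. In T0 its fold change was the lowest of the 10. Its scaffold transcript *mira* was not called lower in either comparison.

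*nerfin-1*, a zinc finger factor that keeps young neurons from reverting to neuroblasts, averaged an implied 3259 (FACS), 309 (T0) and 58.8 (T3) normalized counts. Each stage was well below the one before. The log2 fold change against FACS was -3.40 (SE 0.37, adjusted p = 5.7e-18) in T0, which left 9.49% (95% limits 5.70 to 15.8). In T3 it was -5.83 (SE 0.65, adjusted p = 7.7e-18), which left 1.76% (limits 0.73 to 4.28), the lowest share of the 10 factors. *ase*, *pros* and *nerfin-1* were the 3 factors that passed the Wald test of a change above 0.5 in T0, and *numb* joined them in T3, where 8.69% and 10.7% of all features passed it as lower.

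Neuronal transcripts fell in the same comparisons as *ase*, *pros* and *nerfin-1*, in which 16.2% (T0) and 18.2% (T3) of all tested features were called lower. All 12 neuron markers examined, among them *elav*, *nSyb* and *brp*, were called lower at both stages, at median log2 fold changes of -5.97 (T0) and -7.55 (T3). Their summed implied mean was 18378 (FACS) and 1129 (T0) normalized counts in one table and 18826 (FACS) and 1437 (T3) in the other. No neuron marker was at 0. The lowest was *Rdl* in T0, with an implied mean of 0.67, and the highest in T0 were *Syx1A* at 526 and *elav* at 440.3. Of 8 glia markers, both allografts had 6 lower calls and 1 higher call, that of *Eaat1*. The part of these neuronal and glial transcripts in the fall of *ase*, *pros* and *nerfin-1* was not tested.

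Markers of cell types that an adult host could contribute were also examined. Of all tested features, 15.3% (T0) and 17.2% (T3) were called higher against FACS. Of 8 hemocyte markers, 6 were called higher at each stage, with a summed implied mean of 926 (FACS) and 2971 (T0) normalized counts in one table and 947 (FACS) and 1931 (T3) in the other. *crq* alone held 583 of the FACS sum and 1412 of the T0 sum, while *Hml* went from 39.1 in FACS to 814 in T0. *Pxn* lay lower without a call, at log2 fold changes of -0.59 (adjusted p = 0.41) in T0 and -1.56 (adjusted p = 0.16) in T3. Of 5 adult fat body markers, 4 were called higher at each stage. *Yp1*, *Yp2* and *Yp3* were called at both stages, *apolpp* only in T0 and *FASN1* only in T3. The sum of all 5 went from 9105 to 15584 in T0 and from 9322 to 14868 in T3. *FASN1* held 13239.6 and 14295 of the allograft sums, though it was not called in T0 (adjusted p = 0.15). The 3 gut enzymes *Amy-p*, *Jon65Aiii* and *betaTry* were called higher from means under 3 normalized counts in FACS to a sum of 373 in T0 and 33.5 in T3. Of 4 muscle genes 1, *wupA*, was called in T0 and none in T3 in the deposited DESeq2 tables, where at an unadjusted p under 0.05 the numbers were 1 and 0. The part of host cells in the factors' values was not tested.

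How these genes differed between the first and the fourth allograft was read from T3 against T0. Passage, type of graft and days after transplantation differ together between these stages, and their parts cannot be told apart. *nerfin-1* was lower in T3, with a log2 fold change of -2.44 (SE 0.47, 95% limits -3.35 to -1.52, adjusted p = 1.1e-04). The T3 mean was 18.5% of that in T0 (limits 9.78 to 34.9). By p, *nerfin-1* ranked 18 of 12149 features, and it was among the 0.204% of features that passed as lower in the Wald test of a change above 0.5 (adjusted p = 0.021). Some markers of other cell types were called lower in the same comparison, where 1.02% of all tested features were. Of 5 fat body markers, 2 were called lower, *Yp3* (-2.41, adjusted p = 1.2e-04) and *apolpp* (-1.17, adjusted p = 0.047), with a list median of -2.23. Of 8 hemocyte markers, 1 was called lower, *Sr-CI* (-1.33, adjusted p = 0.0097), with a list median of -0.77. Of 7 glia markers listed there none was called, at a median of -0.67, and 3 lay lower at an unadjusted p under 0.05 by DESeq2. The 3 gut enzymes had a median of -3.13 and an unadjusted p under 0.05 each, and none was called. No neuron marker was called, at a list median of -0.52, and 8 of the 12 had an adjusted p. The summed implied mean of the 12 was 1061 in T0 and 1319 in T3. Of these sums *Syx1A* held 493 and 685, and *elav* 413 and 536. At an unadjusted p under 0.05 in the deposited DESeq2 table, 1 of the 12 lay higher and 2 lower. *nSyb*, at a base mean of 17.7, stood at -2.64 (adjusted p = 0.052), and *para* at 1.42 (adjusted p = 0.46). The part of all these markers in the value of *nerfin-1* was not tested.

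In T3 against T0, *ase*, at -1.10 (SE 0.34, adjusted p = 0.067), and *pros*, at -1.05 (SE 0.38, adjusted p = 0.20), were not called. The other 7 factors were not called either. Their log2 fold changes ran from -0.29 for *numb* to 0.62 for *wor*. For *klu* and *mira* the 95% limits lay within 0.5 on either side of 0 (-0.41 to 0.44 and -0.35 to 0.29), whereas those of *dpn* (-0.49 to 0.58) and *insc* (-0.40 to 0.79) did not.

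**Figure D3:**
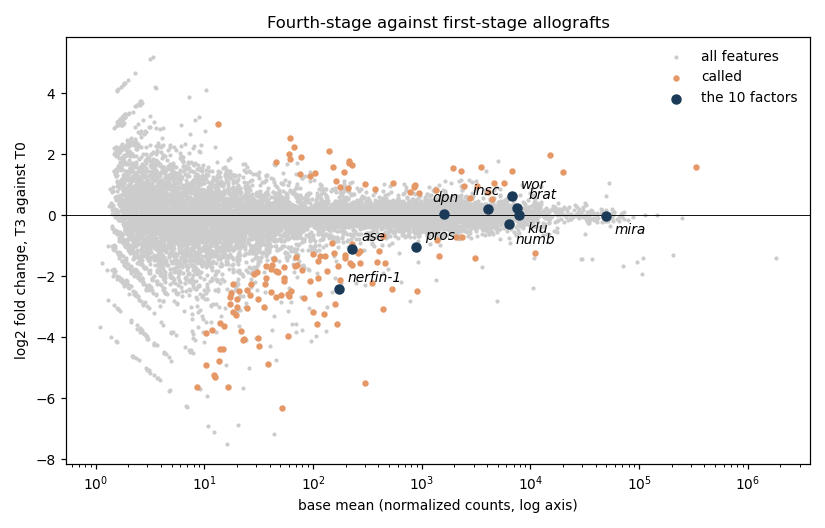
Log2 fold change of T3 against T0 (vertical axis) against the base mean in normalized counts (horizontal log axis) for all features (grey), called features (orange) and the 10 factors (dark, named). *nerfin-1*, at -2.44 and a base mean of 172, lies among the called features, and the other 9 factors lie between -1.10 and 0.62.

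The genes that work with these factors were described by 4 lists. The first holds 15 polarity and spindle genes of the dividing neuroblast, such as *baz*, *par-6* and *aPKC* of the apical complex and *l(2)gl*, *dlg1* and *scrib* of the opposing one. Its median log2 fold change was -0.15 in both comparisons with FACS, and none was called higher. Of the 15, 1 was called lower in T0 (*Galphai*, -0.60, adjusted p = 0.0077) and 2 in T3 (*Galphai*, -0.68, adjusted p = 6.7e-13, and *pins*, -0.53, adjusted p = 0.0011). None of the 15 was called in T3 against T0 in the deposited DESeq2 table, and 0 had an unadjusted p under 0.05 or passed the Wald test of a change above 0.5. *Galphai* and *pins* encode apical partners of Inscuteable, and *insc* itself was not called.

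Of 7 partners of the basal cargo, 4 were called in T0 (2 in each direction) and 3 in T3 (1 of them higher). *stau*, whose product travels with Miranda and carries *pros* mRNA, was called higher at both stages, by 1.09 in T0 (SE 0.23, adjusted p = 2.2e-05) and 0.99 in T3 (SE 0.11, adjusted p = 4.3e-18) on the log2 scale. Its implied mean went from 16946 to 35960 normalized counts in T0, and from 17358 to 34472 in T3 in the other table. *mei-P26*, a relative of *brat*, was called lower at both stages (-1.85, adjusted p = 3.9e-05, in T0 and -0.73, adjusted p = 1.8e-06, in T3). *pum*, which acts with Brat in translational repression, was called lower in T0 (-0.72, adjusted p = 0.032) and *AP-2alpha*, the adaptin that Numb binds, in T3 (-0.51, adjusted p = 5.4e-05). *nos*, another partner of Brat, named after its values were seen since its base mean of 27.4 in T0 against FACS is low, was the other gene called higher in T0 (3.07, adjusted p = 0.0047). *pon*, the partner of Numb at the basal cortex, had log2 fold changes of -0.10 (adjusted p = 0.81) in T0 and 0.001 (adjusted p = 0.99) in T3.

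Of 12 partner factors of self-renewal, 4 were called lower in T0 and none higher, and in T3 4 were called higher and 4 lower. By DESeq2 in the deposited T0 table, 1 of the 12 lay above FACS at an unadjusted p under 0.05, and the Wald test of a change above 0.5 passed 0 as higher. *scrt*, a zinc finger gene of neural precursors and neurons, had the lowest values, -4.55 (adjusted p = 7.1e-07) in T0 and -6.05 (adjusted p = 2.6e-82) in T3. *E(spl)m8-HLH*, a Notch target of the same Hes family as *dpn*, was called lower by -1.77 (adjusted p = 1.2e-07) and -1.59 (adjusted p = 1.1e-15). *D*, a Sox-family gene, and *sna*, a Snail-family relative of *wor*, were the strongest higher calls in T3, at 1.27 (adjusted p = 1.2e-05) and 0.91 (adjusted p = 1.7e-04). Both were also called higher in T3 than in T0, as was *Myc*, a growth regulator (1.57, adjusted p = 0.0090). Against FACS, *Myc* was called lower in T0 (-0.9996 on the log2 scale, adjusted p = 0.047) and higher in T3 (0.56, adjusted p = 6.7e-06). *D* had -0.28 (adjusted p = 0.35) and *sna* -0.06 (adjusted p = 0.90) in T0 against FACS.

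Of 14 genes of progeny differentiation, 12 were called lower at each stage and none higher, at median log2 fold changes of -1.65 (T0) and -1.60 (T3). By DESeq2, as deposited, 0 of them lay above FACS at an unadjusted p under 0.05, and 0 passed as higher in the Wald test of a change above 0.5. *fne*, an ELAV-family RNA-binding gene of neurons, was at -4.88 (adjusted p = 6.1e-25) in T0 and -4.74 (adjusted p = 1.1e-71) in T3. *erm*, a zinc finger factor that holds intermediate progenitors of the type II lineages to their fate, was at -3.28 (adjusted p = 8.8e-11) in T0, and *hbn*, a homeobox gene, at -4.37 (adjusted p = 4.6e-11) in T3. The 2 genes not called in T0 were *onecut* and *sd*, and in T3 *onecut* and *ham*. *elav* belongs to this list and to that of the neuron markers. The study names *erm*, *scro*, *hbn*, *ham*, *dati* and the factor *pros* as early neuronal genes. It reports them as higher in tumors driven by *dpn* and *E(spl)mγ* than in NΔecd tumors, a comparison that used these NΔecd libraries. The count is therefore not independent evidence of a direction.

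**Figure D4:**
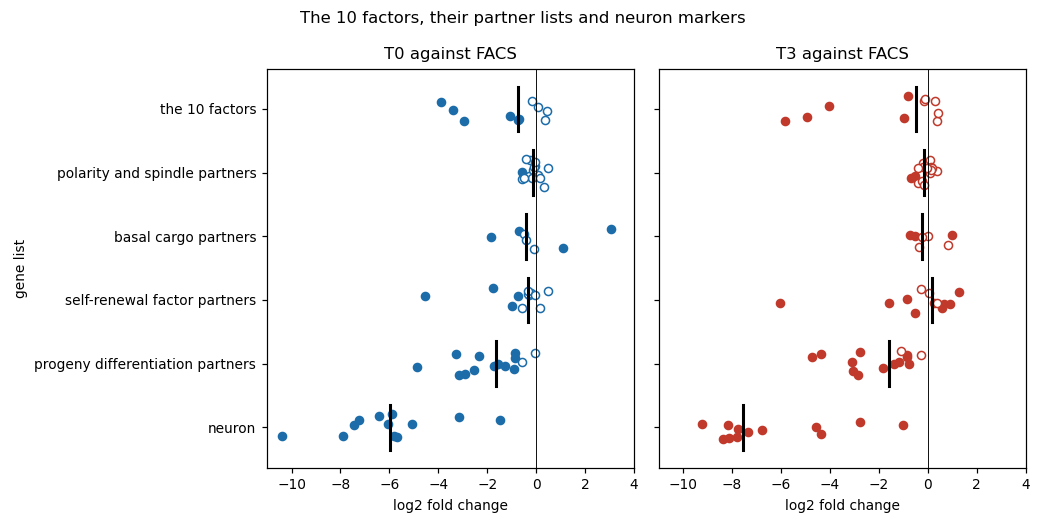
Log2 fold change of single genes in T0 against FACS (left) and T3 against FACS (right) for the 10 factors, 4 lists of partners and 12 neuron markers. Filled points were called, open points were not, black bars are list medians, and points are spread vertically for legibility. The polarity list clusters around its median of -0.15, while the medians of the progeny list lie at -1.65 and -1.60.

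Levels of different genes can be compared only per exonic length, and here no error is attached to such a comparison. Per kilobase of merged exons in BDGP6.54, *mira* led in all 3 stages, with an implied 11844 normalized counts per kb in FACS, 15966 in T0 and 16114 in T3. *wor* followed at 4323, 2548 and 4031. In FACS the other 8 factors lay between 752 for *pros* and 2488 for *numb*. In T3 they spread from 18.3 for *nerfin-1* to 1790 for *klu*, with *ase* at 65.5 and *pros* at 25.2 per kb. The merged exons of *pros* span 24.9 kb over all its isoforms, more than any single transcript, which lowers its value per kb.

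Genes with the most similar course were searched by the distance over the 3 log2 fold changes among the 6291 features whose base mean reached 100 in every table, as a description only. *brat* had close matches in *Ssdp* (distance 0.0080) and *CG5151* (0.0088), and *numb* in *cpb* (0.032) and *kek5* (0.036). The nearest to *pros* was *Ank2* (0.39), with -4.20 in T0 and -5.16 in T3, followed by *ase*. The nearest to *ase* were *CadN* (0.67) and *CG6024* (0.92). For *nerfin-1*, the nearest were *grn* (1.65), with -2.19 in T0 and -5.74 in T3, and *pros* (1.71).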

How the data were processed

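The members and gene lists were chosen with earlier results of these data known. The authors checked reads with FastQC 0.11.9 per the labels, used STAR for alignment and featureCounts for counts per gene, and ran DESeq2 on each pair of stages. Only their 3 comparison tables were used, of which 2 carry an extra layer of quotes that was removed on reading. The deposited base mean is a score, the mean of counts divided by the authors' size factors. The deposited log2 fold change and SE come from the authors' model in log2 units, and the Wald statistic is their ratio. The deposited p-value comes from the authors' Wald test, with Benjamini-Hochberg adjustment after independent filtering. No p-value of these tables was recomputed from counts.

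In Python 3.11.15 (pandas 2.3.3, numpy 2.4.6, scipy 1.17.1; plots by matplotlib 3.10.9) these quantities were derived: implied means (from base mean and fold change, 3 libraries per stage), 95% normal limits, and a two-sided Wald test of a change above 0.5, adjusted over all features with a deposited adjusted p and tested on simulated data. Named were all 10 members, the 2 partners per list and direction with the largest called change and a base mean of at least 30, partners that a statement on a member turns on, and 2 nearest neighbors for members called in both comparisons with FACS. Coordinates are from Ensembl BDGP6.54. The alternatives were a base mean filter of 30, a log2 limit of 1, a threshold of 0.01 for the adjusted p, adjusting over all features that have a p-value, the Wald test above, subtracting the median fold change, and taking a stage's mean from its other table.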

Additional observations from a re-analysis of the deposited data

Results flagged for a closer look

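*nerfin-1* stood out because its change against FACS differed between the allograft stages by a direct test. The log2 fold change of T3 against T0 was -2.44 (SE 0.47, adjusted p = 1.1e-04 by DESeq2 in the deposited table), from -3.40 in T0 to -5.83 in T3 against FACS. The implied means were 309 normalized counts in T0 and 58.8 in T3. Beside it, no neuron marker with a tested value was called in T3 against T0 (0 of 8), and the median log2 fold change of the 12 was -0.52. At an unadjusted p under 0.05 in the deposited DESeq2 table, 1 of the 12 lay higher and 2 lower. The Wald test of a change above 0.5 passed 0 of them. *nSyb* stood at -2.64 (adjusted p = 0.052) and *para* at 1.42 (adjusted p = 0.46). Markers of the fat body (*Yp3*, -2.41, adjusted p = 1.2e-04, and *apolpp*, -1.17, adjusted p = 0.047) and of hemocytes (*Sr-CI*, -1.33, adjusted p = 0.0097) were called lower. The part of these transcripts in the value of *nerfin-1* was not tested.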

How the results depend on the processing

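No paired analysis was possible because the tables hold no values per library, and for the same reason no replicate was left out. Of 51 alternative counts, 48 stayed within 1.5 times the reported count. The Wald test of a change above 0.5 reduced the factors called lower in T0 from 6 to 3 (*wor*, *brat* and *numb* were lost). A log2 fold change of at least 1 reduced those in T3 from 5 to 3 (*brat* and *numb* were lost), and *wor* and *numb* lost their calls in T0. At an adjusted p of at most 0.01, the number of factors past the Wald test in T3 against T0 went from 1 to 0. Of 220 alternative values for single genes, 207 were counted as unchanged and 8 calls were lost. In T3, 4 implied means moved by more than the smallest SE of the gene. The 1 value that changed sign was *klu* in T3 against T0. It went from 0.013 to -0.0081 when centred on the median, far within its SE of 0.22. The base mean filter, the stricter limits, the wider adjustment and the Wald test leave a fold change as it is. Under these settings only a call could change. The base mean filter could not act on any factor, since their lowest base mean was 172. Stricter limits could not raise a count of 0. The 207 is therefore not a measure of how stable the fold changes are. The direct and indirect values of T3 against T0 differed by at most 0.011. Limits of depth per library could not be assessed.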
